A study of Andropogon gerardi with 36 samples.

Results

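Plots 13 and 15 of a prairie experiment were compared on 3 arrays of 2 colours each, which are all the arrays whose sample titles place these plots in the 2 channels. They are 3 of 36 samples in the series and 3 of the 34 arrays that had values and set a plot against a partner plot. The plants were big bluestem (Andropogon gerardi), a warm-season prairie grass, grown under rainout shelters at the Konza Prairie, where warming and changed soil moisture were studied. An RNeasy kit gave total RNA, a Genisphere kit labelled it, and it was hybridised to spotted arrays designed for maize (Zea mays), a related grass. The sources used here do not give the tissue, the treatment of each plot and subplot, or the meaning of the letter in each plant code. Which of the 2 plots had altered soil moisture, and whether subplots 1 and 2 differed in warming, is therefore unknown for every value that follows. A June array set subplot 2 of plot 13 (code letter d) against subplot 2 of plot 15 (letter b). One August array set subplot 1 (letter a) against subplot 1 (letter c), and the other August array set subplot 2 (letter d) against subplot 2 (letter d). Plot 13 was labelled with Cy5 and plot 15 with Cy3 on all 3. A further June array labelled with 1 plant code of plot 13 in both channels was left out.

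A 2-colour array reports a ratio within each spot, so each value compares the transcript level of a plot 13 sample with that of a plot 15 sample, and says nothing of the level in either. Values are log2 ratios in the direction deposited. The sources used here do not say whether that is Cy5 over Cy3 or the reverse, so ratios are called positive or negative and not higher in a plot. All 3 arrays ran the same way, so the sign means the same plot on each, but a dye effect and a plot effect cannot be told apart within them. In tissue RNA, fewer cells of a type and less RNA per cell cannot be told apart either. The same code, plot 13, subplot 2 and letter d, appears in June and in August, and the labels do not say whether samples came from separate plants or extractions. The p-values therefore measure the spread between arrays that each model leaves, over all 34 arrays in the main fits, and it may be technical.

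Grasses under heat and dry soil are known to raise heat shock proteins, which fold damaged proteins, and superoxide dismutases, which remove superoxide. Growth genes, such as those for tubulin, ribosomal proteins and the translationally controlled tumour protein, are known to follow the rate of cell division and expansion. Chromatin proteins of the high mobility group and methyl-CpG-binding types bind DNA and are expressed in most plant cells. The annotation named genes of each of these kinds, and the results are ordered by them.

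The June array held 6039 values among 19200 probes, the August subplot 1 array 8901 and the August subplot 2 array 8728. Other arrays held 2199 to 8038 values in June and 5558 to 9530 in August. On the 3 arrays the median ratio was -0.10, 0 and 0, and the scaled median absolute deviation was 0.384, 0.514 and 0.495, within the 0.311 to 0.812 of all 34 arrays. Ratios at least 1 in size made up 6.71%, 9.27% and 7.17% of the values. All 3 arrays had a value for 3729 probes, of which 653 carried 1 gene symbol, for 189 genes. A single gene, MNB1b, was assigned 230 of the 1800 probes with 1 symbol, so counts of its probes are not separate observations. Without probe sequences that assignment could not be checked, and MNB1b here means the probes that carry this symbol.

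The plot difference as a whole was tested in a linear model (limma) over 34 arrays with a term for the dye, taken from the 5 arrays of other plot pairs that ran the other way. None of 2997 probes passed a Benjamini-Hochberg adjusted p of 0.05, which is 0% of those tested. The lowest adjusted p was 0.862. At an unadjusted p under 0.05 there were 131 probes, 4.37% of those tested, with 83 positive and 48 negative. Averaging probes by gene gave 0 of 159 genes with an adjusted p under 0.05 in limma and 9 with an unadjusted p under 0.05. Ratios were positive on all 3 arrays for 601 probes, 16.1% of the 3729, and negative on all 3 for 526, or 14.1%. Without the MNB1b probes these were 441 (12.4%) and 525 (14.8%) of 3559.

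Agreement between the arrays was weak. Across 3729 probes, the Pearson correlation was 0.137 between June and August subplot 1, 0.0253 between June and August subplot 2, and 0.172 between both August arrays. Spearman's rho was 0.139, 0.0509 and 0.139 in the same order. Leaving out the MNB1b probes gave Pearson values of 0.0980, -0.0218 and 0.119. The probes share their array, hybridisation and labelling, and probes of 1 gene measure the same transcript, so these values describe the arrays and carry no test.

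MNB1b, a maize DNA-binding protein of the high mobility group type, was positive on every array. Its mean over 170 probes with values on all 3 was 0.49 in June, 0.67 in August subplot 1 and 0.58 in August subplot 2, or 0.58 ± 0.09 (SD, n = 3). For comparison, the mean over all 3729 probes was 0.04, 0.08 and -0.01. The probes of the gene behaved alike: 163, 168 and 166 of the 170 were above 0 on the 3 arrays, and 160 of them were above 0 on all 3, beside the 16.1% of all probes. In June they ran from -0.43 to 1.21 with a median of 0.51. They ran from -0.29 to 1.37 with a median of 0.66 in August subplot 1, and from -0.97 to 1.24 with a median of 0.61 in August subplot 2. The June spread within the gene, an SD of 0.269 across probes, was close to those of August, 0.265 and 0.288.

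**Figure D1:**
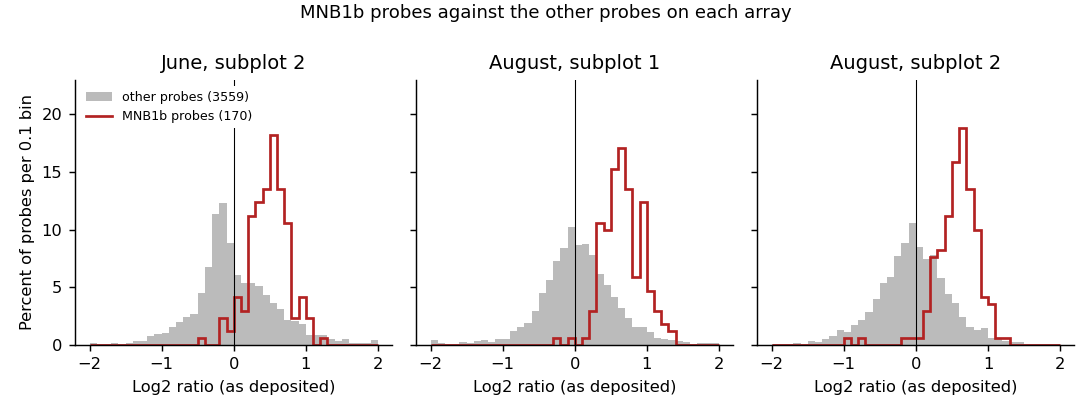
Distribution of log2 ratios on each array of plots 13 and 15 for the 170 MNB1b probes (red outline) and the other 3559 probes with values on all 3 arrays (grey), as percent of probes per bin of 0.1, with values beyond 2 in size counted in the end bins. The MNB1b probes lie mainly to the right of 0 on each array, with medians of 0.51, 0.66 and 0.61, and the other probes lie around 0.

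Against 0, the MNB1b result did not pass the test. With the dye term, the gene-averaged estimate was 0.34 ± 0.39 (SE; limma adjusted p = 0.996). An unadjusted p under 0.05 was reached by 9 of 167 MNB1b probes (5.39%), near the 4.37% of all probes. Probe 5325 had the smallest p of the gene, with ratios of 1, 0.93 and 0.75 and an estimate of 1.35 ± 0.45 (SE; limma adjusted p = 0.964). With the lower-numbered plot first, the gene mean was positive on 12 of the other 31 arrays. Its SD between arrays differed by pair. Pairs that also had July arrays gave 0.68 (2 with 3), 0.65 (4 with 5) and 0.78 (6 with 9). Smaller SDs of 0.30 (11 with 12) and 0.33 (7 with 10) came from pairs with 4 arrays each, all June or August. As deposited, the gene mean was positive on 10 of the other 26 arrays that also had the lower-numbered plot in Cy5. It was positive on 3 of 5 that ran the other way. The SD of 0.09 in plots 13 and 15 rests on 3 arrays.

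The chaperones hsp70-4 and hsp70-5 encode heat shock proteins that bind unfolded proteins. Their 11 probes with values on all 3 arrays averaged 0.26 in June, -0.03 in August subplot 1 and 0.04 in August subplot 2, a mean of 0.09 ± 0.15 (SD, n = 3). Positive probes numbered 10, 4 and 8 of 11 on the 3 arrays. The June mean came more from hsp70-4, with 5 probes and means of 0.43, -0.02 and 0.04, than from hsp70-5, with 6 probes and means of 0.12, -0.04 and 0.04. The highest June ratio among the 11 was 0.90, of hsp70-4 probe 4164, whose August ratios were -0.19 and 0.23. None of the 11 had an unadjusted p under 0.05 for the plot difference, for August minus June or for the subplots. Of the 14 hsp70-4 probes, 6 had a value in June and 13 and 12 in August. Probe 13653 of hsp70-4, outside the 11, went the other way, with -1.76 in June and 1.12 in August subplot 1. It had no value in August subplot 2.

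Sod4A, a cytosolic copper-zinc superoxide dismutase, and TCTP, the translationally controlled tumour protein, both differed in sign between the August subplot 1 array and the arrays of subplot 2. Sod4A averaged -0.48 in June, 0.62 in August subplot 1 and -0.12 in August subplot 2 over 12 probes. TCTP averaged -0.68, 0.38 and -0.37 over 9 probes. Both genes were positive on the subplot 1 array and negative on each subplot 2 array, whichever month. The probes shared this order: all 12 of these Sod4A probes were positive in August subplot 1, against 1 in June and 2 in August subplot 2. Outside the 12, Sod4A probe 8865 had -0.56 and probe 12541 had 0.69 in August subplot 1. For TCTP, 9 of 9 were positive in August subplot 1, none in June and 2 in August subplot 2. In probe 7673 of Sod4A the ratios were -0.68, 0.81 and -0.47, and in probe 4678 of TCTP they were -0.63, 0.49 and -0.43.

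The subplot difference of these genes did not pass the test. Subplot 1 minus subplot 2, in the gene-averaged fit, was 0.92 ± 0.48 (SE; limma adjusted p = 0.996) for Sod4A and 0.90 ± 0.54 (SE; limma adjusted p = 0.996) for TCTP. Subplot 1 is a single array of plots 13 and 15, from August, taken to vary like the other arrays in the model. The subplot 2 arrays are from June and August, so subplot and month are mixed in this contrast. Over all probes, none of 3001 passed (0%; lowest adjusted p in limma 0.999). At an unadjusted p under 0.05 there were 42, or 1.4%, among them 1 of the 12 Sod4A probes and 0 of the 8 TCTP probes tested. The 42 were 26 positive and 16 negative, against 51 and 52 with arrays centred and scaled, and the count was 65 without the June array and 75 without the August subplot 2 array. The other genes named by their smallest p were LOC541933, LOC541886, LOC542434 and LOC542600 on the positive side. Probe 14461 of LOC541886 had ratios of -0.18, 2.05 and -0.10, an estimate of 2.19 ± 0.93 (SE). Large ratios on the subplot 1 array alone made up that difference. On the negative side, probe 1599 of LOC542327 had ratios of 1.03, -0.89 and 0.77 and an estimate of -1.79 ± 0.62 (SE), and LOC542418, LOC542420, LOC542598 and LOC542213 followed. All 10 had a limma adjusted p of 0.999.

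**Figure D2:**
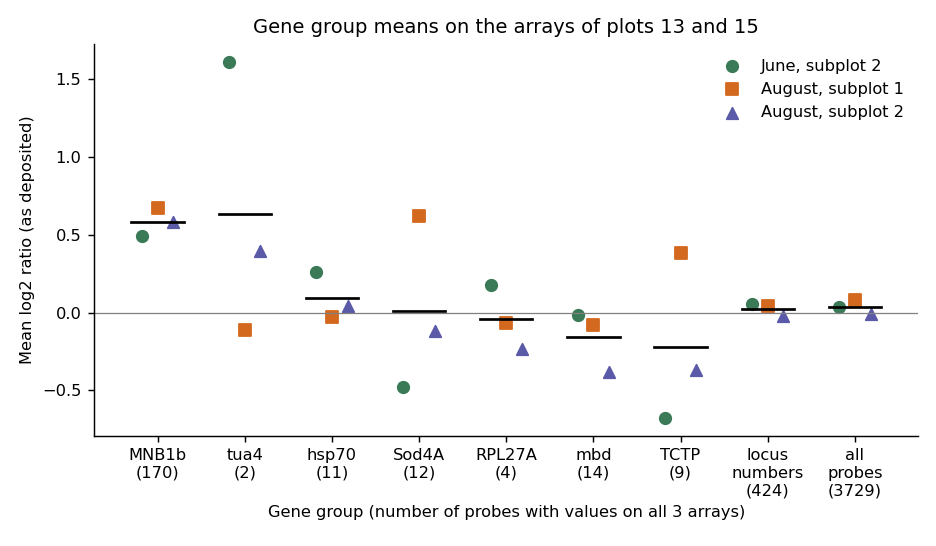
Mean log2 ratio over the probes of each gene group (number of probes in brackets) on the June array (circles) and the August arrays of subplot 1 (squares) and subplot 2 (triangles), with a black bar at the mean of the 3 arrays. MNB1b lies between 0.49 and 0.67 on every array, Sod4A and TCTP are above 0 on the subplot 1 array alone, and tua4 reaches 1.61 in June.

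The alpha-tubulin gene tua4, which encodes a subunit of microtubules, had its largest ratio in June. Probe 1372 had ratios of 1.80, 0.12 and 0.38, and probe 146 had 1.42, -0.34 and 0.40. Both probes were far above their August values on the June array, and the mean of both was 1.61 in June, -0.11 in August subplot 1 and 0.39 in August subplot 2. August minus June was -1.47 ± 0.62 (SE; limma adjusted p = 0.904) in the gene-averaged fit. These are 2 of 12 tua4 probes. Another June probe, 14715, had a ratio of -0.33 and no August value, and among 7 probes with a value in each August array the ratios ran on both sides of 0.

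RPL27A, a protein of the large ribosomal subunit, had means on both sides of 0. Its 4 probes averaged 0.18, -0.07 and -0.23, a mean of -0.04 ± 0.21 (SD, n = 3). Probe 6457 had ratios of 0.28, 0.15 and -0.35, probe 9790 had 0.31, -0.11 and -0.39, and probe 10939 had 0.19, 0.10 and -0.47. The fourth, probe 2454, ran the other way with -0.07, -0.40 and 0.27.

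The mbd genes encode proteins with a methyl-CpG-binding domain, which in animals reads DNA methylation. Their 14 probes averaged -0.02 in June, -0.08 in August subplot 1 and -0.38 in August subplot 2, a mean of -0.16 ± 0.20 (SD, n = 3). No probe was positive on all 3 arrays and 4 were negative on all 3, beside 16.1% and 14.1% of all probes. The genes of the family differed in sign. mbd115 was negative on each array, with means of -0.40, -0.09 and -0.28 over 6 probes, and mbd106 was positive in June and negative in August, with 0.45, -0.17 and -0.30 over 4 probes. The only mbd105 probe with values on all 3 arrays, 8018, went from 1.40 in June to -0.18 and -0.82 in August. Its August minus June estimate was -1.90 ± 0.63 (SE; limma adjusted p = 0.950). The mbd111 probe 2917 was negative throughout, with -0.99, -0.33 and -0.11. The highest mean ratio in the group was that of mbd106 probe 2555 (0.46, -0.01 and 0.17) and the lowest that of mbd115 probe 7020 (-1.28, -0.16 and -0.27).

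Other named genes had 1 probe each with values on all 3 arrays. Cab-m7, a chlorophyll a/b-binding protein of the light-harvesting antenna, had ratios of -0.12, 0.66 and -0.23 at probe 14820. PER42, a peroxidase, had -0.93, -0.89 and 0.04 at probe 3169, and RR5, a cytokinin response regulator, had -0.18, 0.17 and 0.67 at probe 5267. Each of these had ratios of both signs. PLTP, a phospholipid transfer protein, had 0.34, -0.09 and -0.15 at probe 18611, and OBF1, a bZIP transcription factor, had -0.70, -0.10 and -0.02 at probe 7327. Among genes with a name rather than a locus number, no probe outside MNB1b had a plot difference with an unadjusted p under 0.05.

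Of the 424 probes of locus-numbered genes, whose symbols give no function, 67 (15.8%) were positive and 48 (11.3%) negative on all 3 arrays. Among all probes these shares were 16.1% and 14.1%. Their array means were 0.05, 0.04 and -0.02. Among 42 genes with at least 4 probes on all 3 arrays, gene means over the arrays ran from -0.60 to 0.58. The mean was positive on all 3 arrays for 6 of them and negative on all 3 for 4. Within a gene the probes spread less than the genes did: the median SD across probes of a gene was 0.318, 0.205 and 0.284, and the SD of the gene means was 0.338, 0.440 and 0.342. This difference was small in June.

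Among these 42 genes, LOC542445 came next to MNB1b in the size of its positive mean. Its 4 probes averaged 0.66, 0.53 and 0.49, a mean of 0.56 ± 0.09 (SD, n = 3), and all 4 were positive on each array. The plot difference was 0.52 ± 0.21 (SE; limma adjusted p = 0.775) in the gene-averaged fit, and 2 of the 4 probes, which share 1 symbol, had an unadjusted p under 0.05, beside 4.37% of all probes. LOC542115, also with 4 probes, averaged 0.36, 0.42 and 0.41, although only 2 of its probes were positive in June. LOC542718 averaged 0.69 and 0.57 on the first 2 arrays and -0.07 on the third, and LOC542366 -0.02 in June against 0.54 and 0.47 in August.

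On the negative side, LOC542732 averaged -0.13, -1.18 and -0.48 over 4 probes, and LOC541664 -0.29, -0.06 and -0.40 over 6. Both were below 0 on every array, LOC542732 by most in August subplot 1. LOC542737, with 6 probes, averaged 0.02 in June, -1.30 in August subplot 1 and -0.47 in August subplot 2. LOC542641 averaged -0.13, -0.15 and -0.18 over 10 probes, the smallest spread in the negative group with an SD of 0.03 (n = 3). LOC542260 showed the opposite of agreement, with 0.65 and 0.90 on the first 2 arrays and -1.12 in August subplot 2, over 4 probes that were all positive on the first 2 and all negative on the last.

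**Figure D3:**
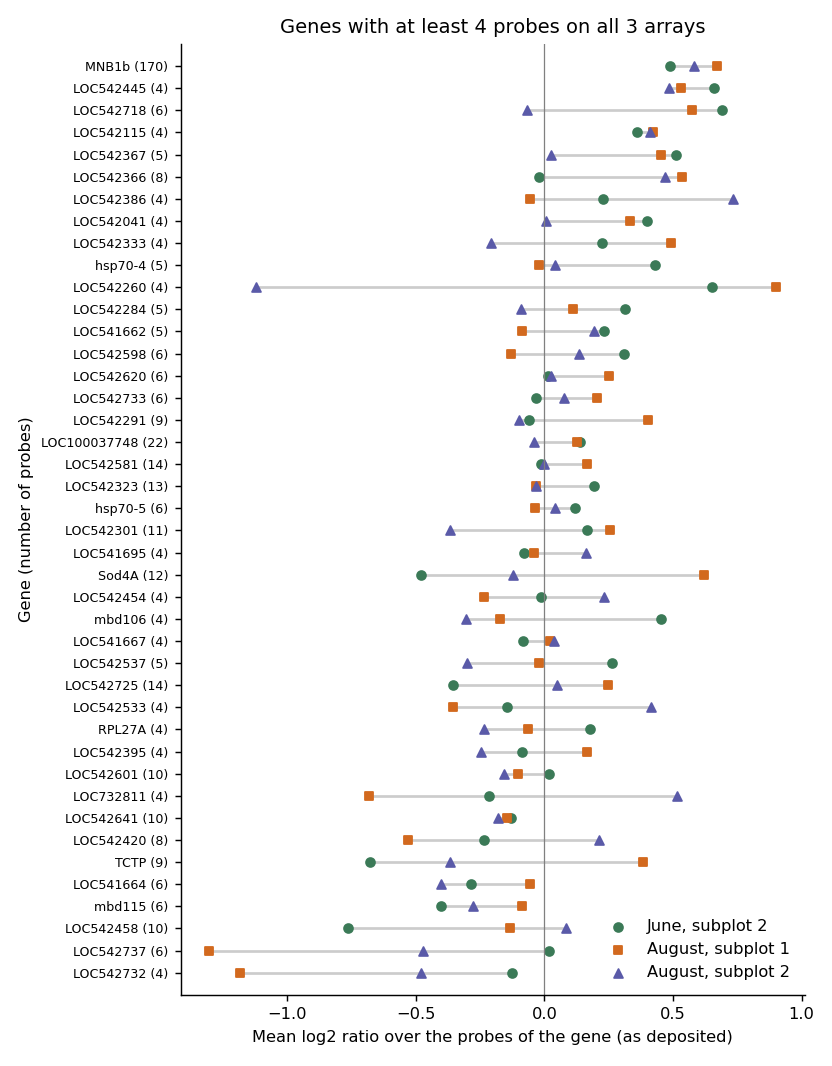
Mean log2 ratio over the probes of each of the 42 genes with at least 4 probes on all 3 arrays, with 1 symbol per array and a grey line over their range. MNB1b (0.49 to 0.67) and LOC542445 (0.49 to 0.66) have all 3 symbols to the right of 0, and many other lines cross 0.

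By smallest p for the plot difference, 10 genes were named on each side, all with a limma adjusted p from 0.964 to 0.973. On the positive side, probe 9449 of LOC541973 had ratios of 0.72, 1.03 and 0.37 and an estimate of 0.96 ± 0.38 (SE). Probe 2840 of LOC542316 had 0.41, 1.09 and 1.12 and an estimate of 1.003 ± 0.42. Probe 2772 of LOC542233 had 1.39, 1.22 and 0.76 and an estimate of 0.95 ± 0.53. These 3 genes had 1 tested probe each, positive on every array. LOC542438, LOC732756, LOC542340, LOC542386 and LOC542718 completed the positive side with MNB1b and LOC542445. The agreement was looser there: probe 3729 of LOC542340 had ratios of 1.74, 1.09 and -1.05. On the negative side, probe 15208 of LOC732827 had ratios of -0.11, -0.15 and -1.29 and an estimate of -0.72 ± 0.29, and probe 14216 of LOC541933 had -1.03, 0.42 and -1.44 and an estimate of -0.99 ± 0.45. A single array carried most of the first, and the second was positive on the subplot 1 array. The others were LOC542449, LOC542395, LOC542458, LOC732753, LOC542737, LOC542601, LOC542719 and LOC100125638. The named probe of LOC732753 was 1 of 3 tested in that direction, and the gene-averaged estimate was -0.17 ± 0.34 (SE). For LOC542601 all 10 tested probes had negative estimates, with ratios of -0.09, -0.27 and -0.19 at probe 6153. Its means over 10 probes were 0.02, -0.10 and -0.16, and 5 of the 10 were negative on all 3 arrays. The gene-averaged estimate was -0.19 ± 0.19 (SE; limma adjusted p = 0.996).

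Ratios of at least 1 in size with the same sign on all 3 arrays occurred at 7 probes. Of these, 6 carried no gene symbol. The positive ones were probe 2904 (1.70, 1.31 and 1.23), probe 2951 (1.19, 1.32 and 1.49), probe 6182 (1.48, 1.82 and 1.31) and probe 14886 (1.23, 1 and 1.83). Probes 16476 (-2.32, -1.59 and -1.15) and 17280 (-3.61, -1.61 and -1.42) were negative, although their estimates with the dye term were -0.13 ± 0.54 and -0.73 ± 0.62 (SE). Among the positive ones, 2951 and 14886 had the smallest p values on the positive side among probes without a symbol, with estimates of 1.49 ± 0.39 and 1.98 ± 0.50 (SE; limma adjusted p = 0.862). The seventh, probe 19114 of LOC100037812, had ratios of -3.17, -2.58 and -1.17 and too few values on other arrays to be tested. On the negative side, the unnamed probes with the smallest p were 7699 (-0.70, -0.38 and -0.79; estimate -1.13 ± 0.32) and 16329 (-0.45, -1 and -1.34; estimate -1.42 ± 0.42), both at a limma adjusted p of 0.862.

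August minus June asked whether the ratio between plots 13 and 15 changed over the season. A constant dye effect cancels here. The June array was of subplot 2 and the August arrays of subplots 1 and 2, so season and subplot are mixed in this contrast. None of 3001 probes passed (0%; lowest limma adjusted p 0.834), and 121, or 4.03%, had an unadjusted p under 0.05, with 52 positive and 69 negative. The split was 32 and 87 with arrays centred on their median, and 115 and 271 with arrays also scaled to one spread, which moved the median estimate of all probes from 0.04 to -0.06 and -0.11. Without the August subplot 2 array the count was 78. Averaged by gene, 0 of 159 had a limma adjusted p under 0.05, the lowest being 0.141, and 7 had an unadjusted p under 0.05. June is a single array of plots 13 and 15, and a probe that was extreme on it gives a large estimate in this contrast.

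LOC541902 had the smallest p among annotated probes. Its probe 15788 went from 1.86 in June to -0.68 and -0.47 in August, an estimate of -2.44 ± 0.61 (SE; limma adjusted p = 0.834). With arrays centred and scaled to one spread, the same limma test gave -3.45 with an adjusted p of 0.0158. Probe 7338 of LOC542418 went from 1.25 to -1.02 and -1.12, an estimate of -2.32 ± 0.80. Both probes were positive in June and negative on each August array, as was mbd105. The other genes on this side were LOC100125638, LOC542320, LOC541810, LOC542371, LOC542340, tua4 and LOC542420. For LOC542420 the named probe was 1 of 8 in that direction and the gene-averaged estimate was 0.07, and LOC541810 and LOC542371 each had 1 of 2 probes in that direction. LOC542320 and LOC542340 had unlike August arrays, with 0.40 and -2.40 at probe 15398 and 1.20 and -1.39 at probe 8254.

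In the other direction, probe 5135 of LOC541886 went from -1.23 in June to 1.57 and 0.56 in August, an estimate of 2.29 ± 0.77 (SE; limma adjusted p = 0.950). Probe 2093 of LOC541649 went from -1.70 to 0.34 and 0.19, an estimate of 1.97 ± 0.69, and TCTP probe 418 from -1.67 to 0.29 and 0.02, an estimate of 1.82 ± 0.73. All 3 were negative in June and positive on both August arrays. Sod4A entered through probe 4086, with -0.36, 0.82 and 0.79, 1 of the 2 Sod4A probes that were positive on both August arrays. LOC541821, LOC732753, LOC542434, LOC542366, LOC542600 and LOC542458 made up the rest. For LOC732753 the named probe was 1 of 3 in that direction, and the gene-averaged estimate was 0.19 ± 0.76 (SE). The adjusted p of the 20 genes ran from 0.834 to 0.999 in limma.

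**Figure D4:**
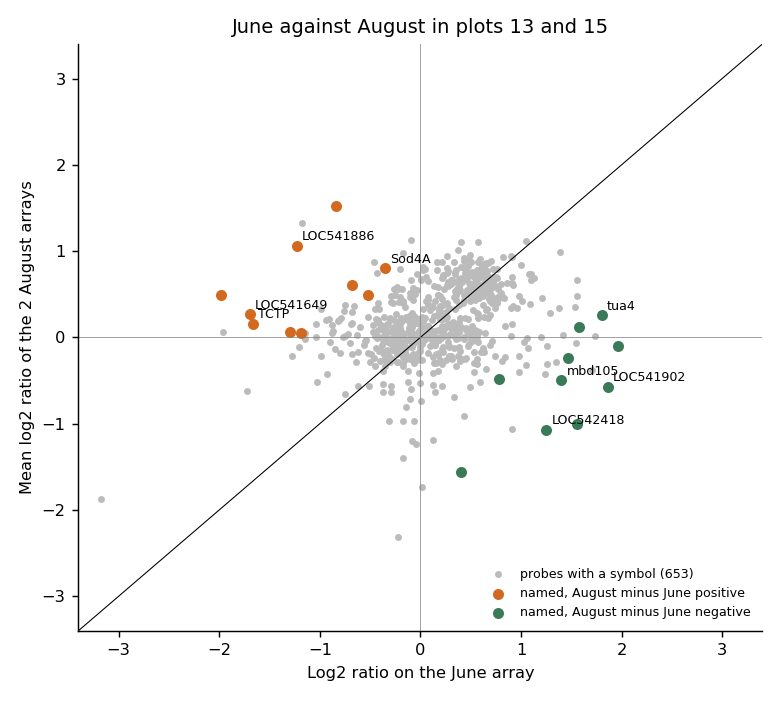
Log2 ratio on the June array (horizontal) against the mean of the 2 August arrays (vertical) for 653 probes with 1 gene symbol, with a line of equality; coloured points are the 20 probes named for August minus June, positive in orange and negative in green. The June ratios of the named probes lie on both sides of 0, from LOC541821 at -1.98 to LOC542340 at 1.96, with LOC100125638 at 0.40 and Sod4A at -0.36 among those nearer 0.

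Whether a probe had a value at all also differed between the June array and the August arrays. Both August arrays but not June had a value for 3292 probes, and June but neither August array for 1202. Of the June probes, 61.7% had values on both August arrays. All 6 probes of LOC542194 had a value in August subplot 2 and 5 in August subplot 1, and none in June. LOC542421 had 3, 9 and 10 of 10 probes on the 3 arrays, and LOC542658 1, 7 and 5 of 9. The reverse was rarer: LOC100125640 had 4, 3 and 1 of 5 probes. LOC542705 had 4, 5 and 0 of 5, a difference between the August arrays. These genes were chosen after their values were seen. The opr genes, for 12-oxophytodienoate reductases of the jasmonate pathway, had 0, 1 and 2 of 4 probes, and tb1, a repressor of branching in maize, had values in August subplot 2 only. The sources used here do not say by which rule a value was left out, and the June array held fewer values in all, so the part of array quality in these counts was not tested.

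Plots 11 and 12 also had June and August arrays of subplots 1 and 2, among them a June subplot 1 array with no counterpart in plots 13 and 15. The lower-numbered plot was in Cy5 on all 4, so a constant dye effect cancels between the pairs. Of 2770 probes, none passed the test of plots 13 and 15 minus plots 11 and 12 (0%; lowest limma adjusted p 0.444). At an unadjusted p under 0.05 there were 266, or 9.6%, with 171 positive and 95 negative. This count was 154 of 2643 probes tested without the June subplot 1 array of plots 11 and 12. It was 175 of 3669 without the June array of plots 13 and 15. With arrays centred on their median it was 218 positive and 75 negative. Without the August subplot 2 array of plots 11 and 12, 1772 probes could be tested and 37 passed in limma, 35 positive and 2 negative, none with a gene symbol. The gene-averaged fit had 0 of 152 below an adjusted p of 0.05 and 11 with an unadjusted p under 0.05. Across probes, the 3 arrays of plots 13 and 15 had Pearson correlations of -0.285, -0.214 and -0.0379 with the June subplot 1 array of plots 11 and 12, and between -0.0613 and 0.0958 with the other 3 arrays of that pair.

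MNB1b had opposite signs in the pairs. Its mean was 0.49, 0.67 and 0.58 in plots 13 and 15, and -0.68, -0.27, -0.04 and -0.06 in plots 11 and 12, so the groups of arrays did not overlap. Of 50 genes with a mean on all 7 arrays, 4 (8%) lay above all of plots 11 and 12 on every array in this way, 7 (14%) lay below, and 1 (2%), MNB1b, had opposite signs throughout. Of 2770 single probes, 198 (7.15%) had opposite signs on all measured arrays of the pairs. The MNB1b difference was 0.85 ± 0.45 (SE; limma adjusted p = 0.543), and 0.71 ± 0.49 (SE; limma adjusted p = 0.943) without the June subplot 1 array of plots 11 and 12. Of 164 probes, 34 (20.7%) had an unadjusted p under 0.05, beside 9.6% of all probes, and 163 had a positive estimate. These probes carry 1 symbol and share their arrays. LOC542445, at 0.66, 0.53 and 0.49, also lay above its values in plots 11 and 12 of -0.22, 0.04, 0.32 and -0.08, a difference of 0.54 ± 0.24 (SE; limma adjusted p = 0.543). It is 1 of the 4 genes above.

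LOC542458 lay on the other side, as 1 of the 7. Its 10 probes averaged -0.76, -0.13 and 0.09 in plots 13 and 15. These lay below each of the values of 1.17, 0.31, 0.39 and 0.73 in plots 11 and 12, which rest on 5, 2, 10 and 10 of these probes. The difference was -0.92 ± 0.33 (SE; limma adjusted p = 0.543), with an unadjusted p under 0.05 for 5 of 10 probes, beside 9.6% of all, and these 10 also share 1 symbol and their arrays. TCTP averaged -0.68, 0.38 and -0.37 against 0.47, 0.47, 0.73 and 0.15, and the groups overlapped through the August subplot 1 array. RPL27A lay at 0.18, -0.07 and -0.23 against -0.80, -0.80, -0.40 and 0.13, overlapping through 1 array of plots 11 and 12, with a difference of 0.43 ± 0.24 (SE; limma adjusted p = 0.549). By smallest p, MNB1b (probe 4938), LOC541973, LOC542316, LOC542386 and RPL27A were named on the positive side, and LOC542458, LOC541933, LOC541695, TCTP and LOC542449 on the negative side, with limma adjusted p from 0.444 to 0.489. Probe 12158 of LOC542458 had the largest negative estimate among them, -1.68 ± 0.50 (SE), from ratios of -1.20, -0.22 and 0.

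**Figure D5:**
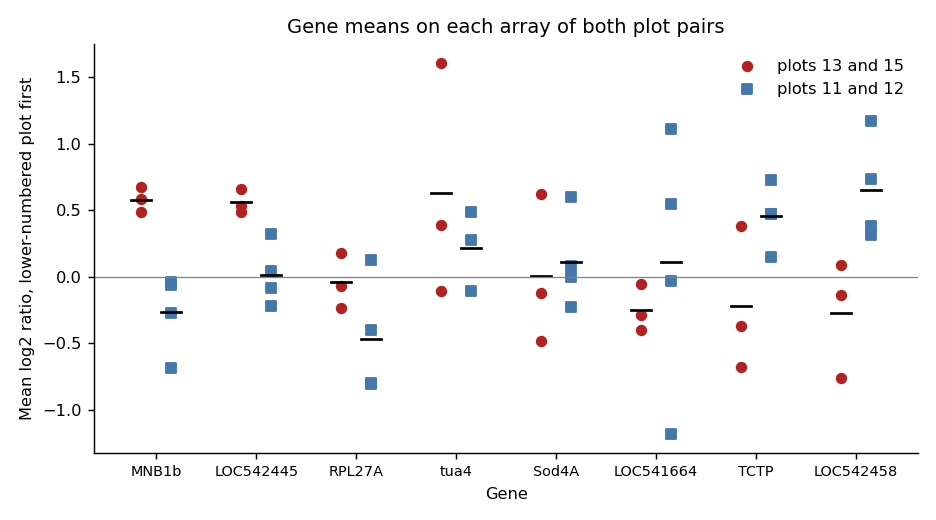
Mean log2 ratio of 8 genes on each array of plots 13 and 15 (red circles, 3 arrays) and plots 11 and 12 (blue squares, up to 4 arrays), with the lower-numbered plot in Cy5 throughout and a black bar at each mean. MNB1b lies above 0 on every array of plots 13 and 15 and below 0 on every array of plots 11 and 12, and LOC542458 is lower in plots 13 and 15.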

How the data were processed

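What the authors deposited are log10 ratios, 1 per probe and array. Their files state no unit, and this was settled from the values: on the 3 arrays 86.3%, 95.7% and 96.9% of them equal the log10 of a fraction of whole numbers whose denominator is at most 1000, within 6e-10. The sources used here do not name the scanner, image software, background correction, normalization, filters or the direction of the ratio. One column of the deposited table was empty and not used, so 1 column went unmapped. Values were converted to log2, and signal over background is unknown, so the number of arrays limits the precision. The platform annotation gives 1 gene symbol to 1800 of the 19200 probes, several to 23, which were not named, and none to 17377.

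The tool limma 3.58.1 (R 4.3.3) fitted linear models to ratios of the lower-numbered plot against its partner, with a dye term and no block, and without centring or scaling. The plot difference used 1 coefficient per plot pair. August minus June used 1 per pair and month, and the subplot difference 1 per pair and subplot class, subplot 1 or subplots 2 and 4. Probes needed a value on all 3 arrays of plots 13 and 15, on at least 17 of 34 arrays and on at least 2 of the 5 arrays with the lower-numbered plot in Cy3, and a coefficient that the probe's own arrays could estimate. The comparison with plots 11 and 12 also needed 2 arrays of that pair. Calls were Benjamini-Hochberg adjusted p under 0.05 over all probes tested. Group means carry no test, because 3 arrays cannot give an exact sign-flip p under 0.25. The fits were tested on simulated data. Summaries used Python 3.11.15 with pandas 2.3.3 and numpy 2.4.6.

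Alternatives were no dye term, a random block of plot pair and subplot class (statmod 1.5.0), and stricter and looser filters. Others were centring and scaling of arrays, fewer arrays, and leaving out in turn single arrays of the pair or pairs in the contrast. The only array of a month or subplot was kept in the contrast of months or subplots. No array of the other pairs was left out singly. The gene-averaged fits, also without the unmatched June array of plots 11 and 12, a term for the subplot class and correlations without MNB1b were chosen after seeing the data. The comparison and gene lists were chosen with earlier results of these data known. Annotated genes were named by the smallest p per direction, 10 each for the plot difference and the season and 5 each for the subplots and the other pair, with every list having at least 2 probes on all 3 arrays. Locus-numbered genes with many probes and those shown across both pairs were chosen after their values were seen. Searches by gene description, such as photosystems, water deficit or aquaporins, matched 0 probes, because the annotation holds symbols only.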

Additional observations from a re-analysis of the deposited data

Results flagged for a closer look

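MNB1b had opposite signs on every array of plots 13 and 15 and of plots 11 and 12, alone (2%) among 50 genes with a mean on all 7 arrays. Its mean was 0.58 in plots 13 and 15, positive on 3 of 3 arrays, and -0.26 in plots 11 and 12, negative on 4 of 4. The difference itself was tested, at 0.85 ± 0.45 (SE; limma adjusted p = 0.543), and did not pass.

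Of 2770 probes tested against plots 11 and 12, 198 (7.15%) had opposite signs on all measured arrays of the 2 pairs. Among them were 3 of the 10 probes named for their small p in that same comparison, so their separation is no separate evidence. MNB1b probe 4938 differed by 1.49, with ratios of 0.72, 1.02 and 0.56 against -1.21, -0.71 and -0.26 on the 3 arrays of plots 11 and 12 with a value. LOC542386 probe 5906 differed by 1.48, with 1.56, 0.15 and 1.19 against -0.89 and -0.14 on the 2 August arrays with a value. LOC541695 probe 7686 differed by -0.93, with -0.24, -0.08 and -0.13 against 1.47, 0.48 and 0.41. Their limma adjusted p was 0.444 to 0.461. Over all tested probes of each gene, the estimates ran from -0.60 to 1.65 for MNB1b and from 0.31 to 1.48 for LOC542386. For LOC541695 they ran from -0.93 to -0.23.

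The June array labelled with 1 plant code of plot 13 in both channels, which entered no comparison, stood apart in its spread and its number of values. Its log2 ratios had a scaled median absolute deviation of 1.33, above the highest of the 34 arrays (0.812), and 13515 values, above their highest of 9530. Its median was -0.40.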

How the results depend on the processing

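Each ratio already pairs the 2 plots on 1 array. The labels give no replicate numbers, and arrays were not paired further. A random block of plot pair and subplot class left the counts of calls at 0. Of 47 alternative counts, 45 were 0. August minus June had 12 calls, 1 positive and 11 negative, with arrays centred and scaled to one spread. Without the August subplot 2 array of plots 11 and 12, the comparison with that pair had 37 calls, from 1772 probes tested instead of 2770. The cause was not tested for either. Probes with an unadjusted p under 0.05 in limma ran from 76 of 1668 tested to 321 of 3001 for the plot difference. For August minus June they ran from 56 of 1572 to 386 of 3001. They ran from 23 of 1623 to 110 of 6321 for the subplots, and from 154 of 2643 to 404 of 2770 for the other pair. The number tested varied with the filter and the arrays used. The lowest limma adjusted p without the dye term was 0.0650 for the plot difference.

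The 60 named probe values were recomputed under 585 alternatives, and 584 kept their direction and their side of the threshold. The exception was LOC541902 probe 15788 for August minus June, at -3.45 with scaled arrays. Scaling also moved the MNB1b mean from 0.58 to 0.74, and the mean of locus-numbered probes to 0.08. June and subplot 1 have 1 array each, which was taken to vary like the others.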
